A study of Mus musculus with 4 samples.

Results

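Messenger RNA of the hippocampus was compared between Ctrl and licochalcone A (LA) mice for 74 of the 19230 genes in the deposited table, those that encode splicing factors and RNA-binding proteins of 10 families. They were taken by gene symbol alone, with no measured value used: 11 SR proteins (Srsf), 21 heterogeneous nuclear ribonucleoproteins (hnRNPs), 12 proteins of small nuclear ribonucleoproteins (snRNPs, Snrp), 9 SF3 subunits (Sf3a, Sf3b), 3 Rbfox, 6 Celf, 4 Elavl, 2 Nova, 3 Mbnl and 3 Ptbp genes. All animals were C57BL/6 mice aged 12 months with no further genotype given. LA, a chalcone of licorice root, had been given for 30 days to the mice of 2 libraries (LA replicates 1 and 2), and 2 libraries (Ctrl replicates 2 and 3) came from mice whose treatment label is a term for ordinary cell culture. No source used here gives the dose, the route, a vehicle or the number of mice behind a library, so the p-values rest on library-to-library spread alone and part of that spread may be technical.

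An intron is removed by the spliceosome, a machine of small nuclear RNAs and proteins. The snRNP proteins form the ring and the specific parts of its particles, and SF3A and SF3B sit on the branch site as parts of the U2 particle. SR proteins mostly favour the use of an exon, hnRNPs often oppose it, and the Rbfox, Nova, Elavl, Ptbp, Mbnl and Celf families set which exons a tissue uses. In the brain the change from Ptbp1 to Ptbp2 marks the step from precursor to neuron, and Rbfox3 is the antigen known as NeuN.

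None of the 72 members tested passed the threshold between LA and Ctrl. Values were deposited as FPKM, fragments scaled to transcript length and to the mapped total of the library, and were compared on log2(FPKM + 1) with limma over the 13518 genes that averaged 1 FPKM or more, with p-values adjusted by the Benjamini-Hochberg method and a threshold of 0.05. Over all genes 19 passed (0.141%), 19 lower and 0 higher with LA, so 0 of 72 is near this background. At an unadjusted p under 0.05 from limma, 1 member was higher (Mbnl1) and 1 lower (Ptbp1), which is 2.78% of members. Of all genes tested 3.74% were higher and 4.06% lower, 7.8% together. The smallest adjusted p of a member was 0.609 from limma, for Ptbp1. The median log2 fold change of the members was -0.01, as was that of all genes tested, with 34 positive and 38 negative. In 9 members both LA libraries lay above both Ctrl libraries (17.6% of all genes did so), and in 11 both lay below (21% of all genes). The groups thus stood apart in 27.8% of members and in 38.6% of all genes.

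A missing call does not show equal levels, so the interval of each difference is given too. For each gene limma joined its own spread (2 residual degrees of freedom) with that of genes of like level (5.37 prior degrees of freedom). The width of an interval thus rests more on other genes than on the gene's own libraries. The 95% intervals of the members had a median half-width of 0.40 on the log2 scale, from 0.34 to 0.76. For 70 of 72 members the interval stayed within a 2-fold change either way, with Celf4 and Ptbp1 as the exceptions, and for 47 of 72 it stayed within 1.5-fold. Over all genes tested these shares were 90% and 42.7%. The plot of fold changes with their intervals shows Ptbp1 alone with its whole interval below 0 and Mbnl1 alone with its whole interval above 0.

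**Figure D1:**
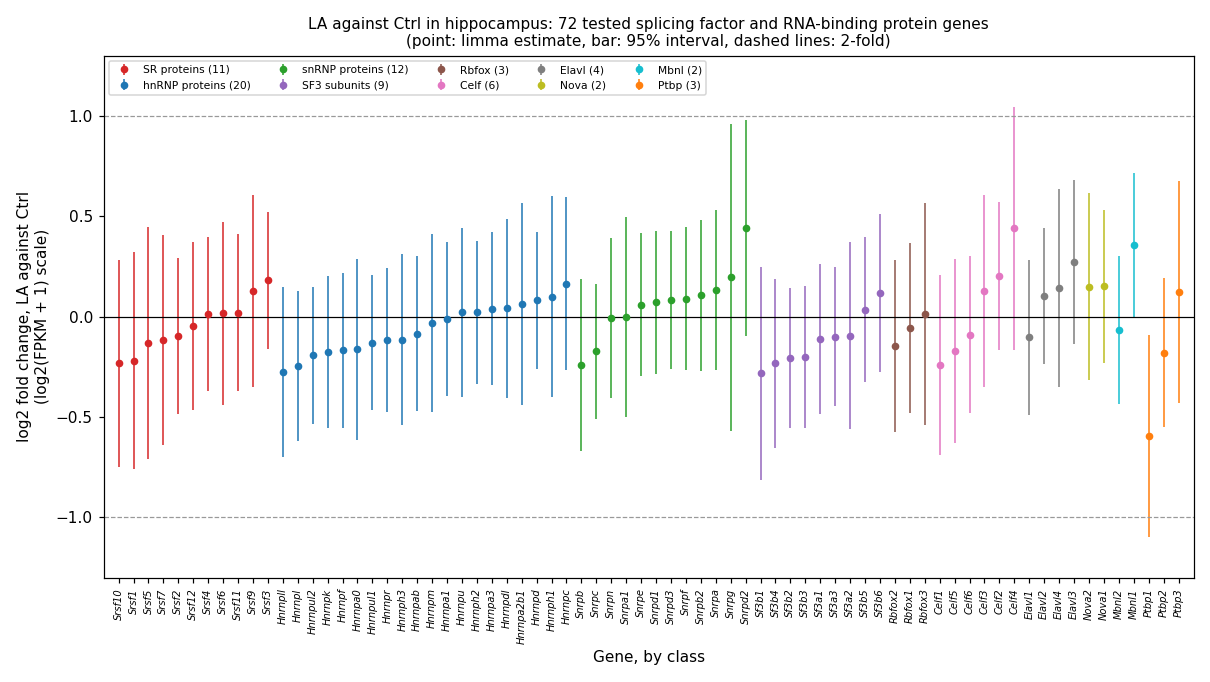
Log2 fold change of LA against Ctrl (vertical axis, log2(FPKM + 1) scale) for the 72 tested members, grouped by class on the horizontal axis. Points are limma estimates from 2 libraries per group, bars are 95% intervals and dashed lines mark a 2-fold change, which only the bars of Celf4 and Ptbp1 cross.

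Marker levels and library totals differed between the libraries. All 10 pan-neuronal and all 10 hippocampal neuron markers were measured, with summed levels of 2506 to 3176 and of 309 to 368 FPKM per library. Choroid plexus markers summed to 7557 FPKM in Ctrl replicate 3 and to 20.6 to 86.3 FPKM in the other libraries. Leptomeningeal fibroblast markers summed to 227 and 274 FPKM in Ctrl and to 79.3 and 96.0 FPKM in LA, with 6 of 10 called lower. Myelin markers summed to 2301 and 2000 FPKM in Ctrl against 3561 and 4362 FPKM in LA, with 10 of 10 fold changes positive and 0 called. In such tissue pieces fewer cells of a type and less RNA per cell cannot be told apart. All FPKM summed to 386945 to 394912 in 3 libraries and to 441948 in LA replicate 2, of which the 74 members made up 0.931% to 0.971% and 0.813%. Without Ctrl replicate 3 the median log2 fold change of the members was -0.03, against -0.01 with all libraries. That fit holds no spread within Ctrl, so it cannot show how far this library shaped the values of single members.

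Ptbp1 was the member with the smallest p. It encodes the polypyrimidine tract binding protein that represses neuronal exons in precursors and non-neuronal cells, and lies on chromosome 10 of GRCm38 from 79854432 to 79864435. Its level was 18.1 and 26.2 FPKM in Ctrl and 15.8 and 12.5 FPKM in LA. Both LA libraries lay below both Ctrl libraries, but the gap between the Ctrl libraries was wider than the gap from the lower of them to LA. The log2 fold change was -0.60 (standard error 0.21, 95% interval -1.10 to -0.09, adjusted p = 0.609 from limma), and it ranged from -0.85 to -0.34 with each library left out in turn, where 0 of the 4 fits gave a call. The higher Ctrl library was replicate 3, which also had the highest summed level of endothelial markers, 76.9 FPKM against 38.4 FPKM in Ctrl replicate 2 and 28.5 and 31.1 FPKM in LA. Of the 76.9 FPKM, Ly6c1 gave 47.5 FPKM. All 7 endothelial markers tested of 8 listed had a negative fold change and 0 were called. Choroid plexus (7557 FPKM) and leptomeningeal fibroblast markers (274 FPKM) also had their highest sum in Ctrl replicate 3. Myelin (2000 FPKM) and microglia markers (197 FPKM) had their lowest sum there. The part of these cell types in the Ptbp1 values was not tested.

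Ptbp2, the neuronal form, which takes over many targets of Ptbp1, stood at 51.0 and 53.6 FPKM in Ctrl and 50.5 and 42.0 FPKM in LA, a log2 fold change of -0.18. Ptbp2 was thus above Ptbp1 in every library, by 2.82- and 2.05-fold in Ctrl and by 3.20- and 3.35-fold in LA. The log2 ratio was 1.498 and 1.03 in Ctrl and 1.68 and 1.74 in LA, so the groups did not overlap, but with 2 libraries against 2 an exact permutation test cannot give a p under 0.33. Ptbp3 was the lowest member tested, at 5.61 and 5.78 FPKM in Ctrl and 8.01 and 4.89 FPKM in LA, with LA libraries on both sides of Ctrl.

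Mbnl1 had the only positive fold change with an unadjusted p under 0.05. Muscleblind proteins promote the exon choices of mature tissue and are trapped by repeat RNA in myotonic dystrophy. Mbnl1 lies on chromosome 3 of GRCm38 from 60472559 to 60629750. Its level was 20.2 and 20.4 FPKM in Ctrl and 24.5 and 28.2 FPKM in LA. Both LA libraries were higher than both Ctrl libraries, which lay close together, and the log2 fold change was 0.36 (standard error 0.15, 95% interval 0.0001 to 0.71, adjusted p = 0.641 from limma). Mbnl2, the form best known for its role in brain, was higher than Mbnl1 in every library, at 63.5 and 72.9 FPKM in Ctrl and 67.3 and 62.6 FPKM in LA. The ratio of Mbnl1 to Mbnl2 was 0.318 and 0.281 in Ctrl and 0.364 and 0.451 in LA. Mbnl3 was listed at 0.03 to 0.07 FPKM and was not tested.

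Among the Rbfox genes, which bind a GCAUG element beside regulated exons, Rbfox1 and Rbfox3 were the higher forms and their ranges overlapped. Rbfox1 stood at 83.4 and 96.1 FPKM in Ctrl and 76.9 and 96.4 FPKM in LA. Rbfox3, the neuronal nuclear antigen, stood at 65.6 and 64.8 FPKM in Ctrl and at 51.1 and 84.6 FPKM in LA, so the LA libraries lay on either side of both Ctrl libraries. Rbfox2, also found outside neurons, was below the other two in every library, at 43.3 and 43.1 FPKM in Ctrl and 45.6 and 33.2 FPKM in LA. Rbfox2 thus had its lowest value in the library where Rbfox3 had its highest: the ratio of Rbfox3 to Rbfox2 was 1.52 and 1.504 in Ctrl but 1.12 in LA replicate 1 and 2.55 in LA replicate 2. The log2 fold changes of the 3 genes lay between -0.15 and 0.01. Each limma interval, its width drawn largely from other genes, stayed within 1.5-fold.

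**Figure D2:**
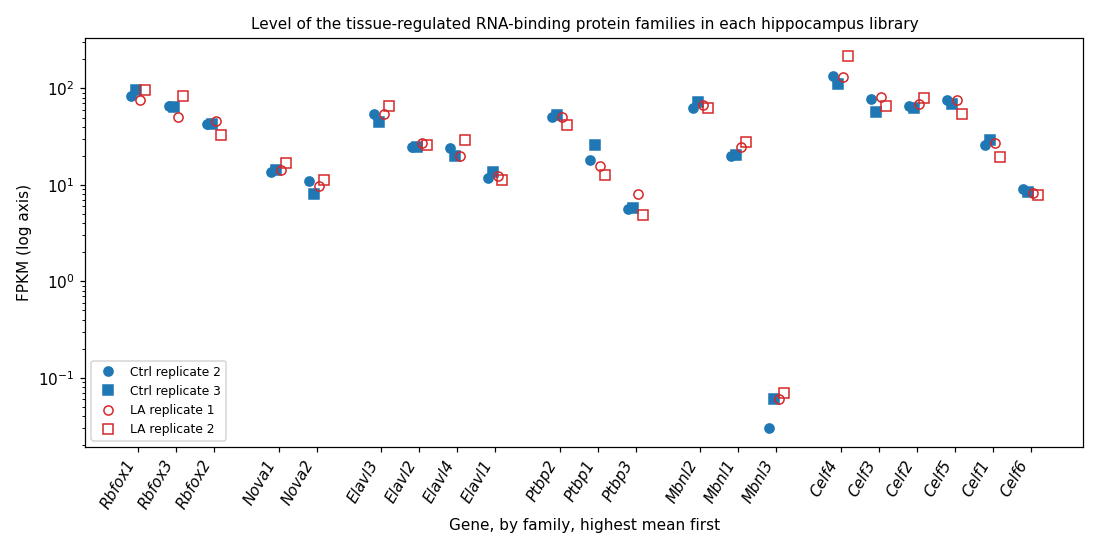
FPKM (vertical log axis) of the 21 Rbfox, Nova, Elavl, Ptbp, Mbnl and Celf genes, ordered within a family by their mean. Each symbol is 1 library, filled for Ctrl and open for LA; Mbnl3 lies under 0.1 FPKM, while the other 20 genes lie above 4 FPKM in every library.

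Nova1 and Nova2 encode neuronal splicing factors first known as targets of autoimmune antibodies. Nova1 stood at 13.6 and 14.2 FPKM in Ctrl and 14.2 and 16.9 FPKM in LA, and Nova2 at 11.02 and 8 FPKM in Ctrl and 9.85 and 11.3 FPKM in LA. Nova1 was higher than Nova2 by 1.23- to 1.77-fold in the 4 libraries, with no shift of the ratio between groups beyond the spread. Of the Elavl genes, which encode the Hu proteins that stabilise messages with AU-rich elements, neuronal Elavl3 was the highest in every library, at 54.7 and 45.2 FPKM in Ctrl and 54.8 and 66.3 FPKM in LA. Elavl2 stood at 24.6 and 24.8 FPKM in Ctrl and 27.4 and 25.7 FPKM in LA, and Elavl4 at 24.0 and 20.0 FPKM in Ctrl and 20.0 and 29.4 FPKM in LA, so these neighbours in level did not differ beyond their spread. The ubiquitous form Elavl1, or HuR, was the lowest, at 11.8 and 13.5 FPKM in Ctrl and 12.3 and 11.1 FPKM in LA. Elavl3 had a log2 fold change of 0.27 (95% interval -0.14 to 0.68), Elavl4 of 0.14, Elavl2 of 0.10 and Elavl1 of -0.10, none past the threshold.

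The Celf family, whose members bind GU-rich RNA and act on splicing, stability and translation, held the member with the highest mean over the 4 libraries, although Srsf5 was higher than it in 3 of the 4. Celf4, a mostly neuronal form, was 136 and 112 FPKM in Ctrl and 130.2 and 215 FPKM in LA. LA replicate 1 lay between the Ctrl libraries and LA replicate 2 above all others, so the log2 fold change of 0.44 (standard error 0.26, 95% interval -0.16 to 1.05, adjusted p = 0.732 from limma) rested on that library: it was 0.08 without it and 0.80 without LA replicate 1 (adjusted p = 0.0818 from limma). Celf3 stood at 77.9 and 56.9 FPKM in Ctrl and 81.2 and 65.2 FPKM in LA, Celf2 at 66.0 and 63.2 FPKM in Ctrl and 69.1 and 80.1 FPKM in LA. Celf5 stood at 76.0 and 69.5 FPKM in Ctrl and 76.5 and 54.4 FPKM in LA. The ranges of these 3 neighbours in level overlapped. Celf1, the widely expressed form, followed at 25.7 and 29.0 FPKM in Ctrl and 27.1 and 19.5 FPKM in LA, and Celf6 at 9 and 8.39 FPKM in Ctrl and 8.34 and 7.88 FPKM in LA. Celf2 had a log2 fold change of 0.20, Celf3 of 0.13, Celf6 of -0.09, Celf5 of -0.17 and Celf1 of -0.24.

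The SR proteins carry a domain of arginine and serine repeats that is phosphorylated when they act. Their mean levels ran from 10.7 to 147 FPKM. The highest was Srsf5, whose range did not overlap that of the next, at 150.3 and 153 FPKM in Ctrl and 177 and 108 FPKM in LA. The 11 genes had a median log2 fold change of -0.05, from -0.23 for Srsf10 to 0.18 for Srsf3, with 5 positive and 6 negative and 0 called. Srsf3, the smallest SR protein, stood at 37.6 and 35.1 FPKM in Ctrl and 42.5 and 40.2 FPKM in LA and was the only SR gene whose groups did not overlap.

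The SR genes differed within the LA group. All 11 were lower in LA replicate 2 than in LA replicate 1, with a median difference of -0.47 on the log2 scale. Of all genes tested 57.9% were lower, with a median of -0.07. The direction was not particular to SR genes: all 3 Ptbp genes (median -0.31) and 8 of 9 splicing kinases (median -0.28) were lower too. Srsf10 was 33.5 and 39.95 FPKM in Ctrl and 38.3 and 25 FPKM in LA. Srsf1, the first SR protein studied in depth, was 31.9 and 39.8 FPKM in Ctrl and 38.1 and 24.3 FPKM in LA. Srsf7 followed with 58.1 and 63.4 FPKM in Ctrl and 70.3 and 44.6 FPKM in LA. In all 4 genes, Srsf5 included, LA replicate 2 was the lowest of the 4 libraries. Srsf6, like Srsf7 named after its values were seen, was 41.3 and 44.4 FPKM in Ctrl and 51.8 and 36.2 FPKM in LA, also lowest in LA replicate 2, with a difference of -0.50 between the LA libraries. The other SR genes differed less: Srsf2 was 86.8 and 71.7 FPKM in LA, Srsf11 98.0 and 86.2 FPKM, Srsf9 28.1 and 19.9 FPKM, Srsf4 27.1 and 24.6 FPKM and Srsf12 11.8 and 9.28 FPKM. Between the Ctrl libraries the SR genes differed in both directions, from -0.30 for Srsf9 to 0.31 for Srsf1. The median of these differences was 0.02 and their median size 0.12. The median log2 fold change of the class accordingly moved from -0.23 without LA replicate 1 to 0.11 without LA replicate 2.

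Promoters are shown for the 4 genes with the widest gap between the LA libraries among the SR genes, and for Ptbp1, which differed most between the groups. They were chosen after the values were seen. Each is the 250 bases before a transcript start annotated by RefSeq on GRCm38.p6. Set against the span of the whole gene in the RefSeq gene table, only the Ptbp1 stretch lies wholly before its gene: those of Srsf1 and Srsf10 lie inside the gene, whose span starts further upstream, and those of Srsf5 and Srsf7 overlap its first bases. Sequences run 5′ to 3′ along the gene's strand, in lower case, with capitals for a CCAAT box (CCAAT or ATTGG), a GC box (GGGCGG or CCGCCC) or a TATA box (TATAAA or TTTATA), searched on both strands.
Srsf5, chr12:80945249-80945498, plus strand: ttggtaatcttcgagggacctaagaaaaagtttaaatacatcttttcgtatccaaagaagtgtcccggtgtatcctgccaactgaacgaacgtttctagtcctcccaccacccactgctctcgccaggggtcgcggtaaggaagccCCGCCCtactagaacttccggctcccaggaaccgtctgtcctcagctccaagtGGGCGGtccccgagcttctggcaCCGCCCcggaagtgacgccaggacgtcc
Srsf7, chr17:80207306-80207555, minus strand: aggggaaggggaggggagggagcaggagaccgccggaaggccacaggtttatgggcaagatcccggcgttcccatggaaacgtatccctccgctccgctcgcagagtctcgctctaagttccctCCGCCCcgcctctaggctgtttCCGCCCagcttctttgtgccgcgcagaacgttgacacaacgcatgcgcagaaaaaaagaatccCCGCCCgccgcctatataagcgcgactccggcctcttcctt
Srsf1, chr11:88047123-88047372, plus strand: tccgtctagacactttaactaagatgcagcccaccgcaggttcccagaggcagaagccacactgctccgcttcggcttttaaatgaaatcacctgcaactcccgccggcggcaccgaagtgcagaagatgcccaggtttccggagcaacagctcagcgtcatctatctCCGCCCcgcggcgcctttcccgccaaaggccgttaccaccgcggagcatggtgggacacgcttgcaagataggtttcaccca
Srsf10, chr4:135855821-135856070, plus strand: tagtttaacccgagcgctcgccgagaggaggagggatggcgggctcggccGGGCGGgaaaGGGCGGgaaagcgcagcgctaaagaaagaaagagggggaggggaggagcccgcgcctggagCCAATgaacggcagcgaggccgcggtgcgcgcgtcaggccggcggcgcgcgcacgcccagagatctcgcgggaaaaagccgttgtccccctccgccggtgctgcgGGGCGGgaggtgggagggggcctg
Ptbp1, chr10:79854182-79854431, plus strand: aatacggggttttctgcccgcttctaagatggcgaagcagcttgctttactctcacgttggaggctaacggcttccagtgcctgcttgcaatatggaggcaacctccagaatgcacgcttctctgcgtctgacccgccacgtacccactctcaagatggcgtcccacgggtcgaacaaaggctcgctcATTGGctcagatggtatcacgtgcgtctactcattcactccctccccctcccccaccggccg

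The promoters of Srsf5, Srsf7 and Srsf10 each held 3 GC boxes and that of Srsf1 held 1, while that of Ptbp1 held no GC box. A CCAAT box stood once in the promoters of Srsf10 and Ptbp1, and none of the 5 held TATAAA or TTTATA. Other forms of a TATA box were not searched, among them the letters tatataag near the end of the Srsf7 promoter. Promoters were found for 65 of the 74 members. A GC box was in 13 of the 14 promoters of SR genes (92.9%), in 62 of the 106 promoters of members (58.5%) and in 32.7% of all 32817 promoters of that length. A CCAAT box was in 3 of the 14, in 44.3% of the 106 and in 33.8% of all, and TATAAA or TTTATA in 14.3%, 11.3% and 12.4%. The 32817 promoters were not limited to the genes tested here, and a gene with several annotated starts counts more than once. The shares are thus not those of like sets of genes. A match is a description of the letters only.

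The hnRNPs coat new transcripts and compete with SR proteins for exons. The 20 tested genes had mean levels of 21.6 to 140.0 FPKM and a median log2 fold change of -0.06, with 8 positive, 12 negative and 0 called. Hnrnpk, a poly(C)-binding protein, led the class at 148 and 149 FPKM in Ctrl and 132 and 131 FPKM in LA. Its 2 values within each group lay close together and the groups did not overlap, yet the log2 fold change was only -0.17 (95% interval -0.55 to 0.20). Hnrnpa2b1, which also sorts RNA into dendrites, was 146 and 125 FPKM in Ctrl and 169 and 118 FPKM in LA, and Hnrnpa1 was 129.7 and 131 FPKM in Ctrl and 136 and 124 FPKM in LA. The ranges of these 3 overlapped from each to the next. Hnrnpl, a CA-repeat binding protein, stood at 96.6 and 104 FPKM in Ctrl and 89.2 and 79.9 FPKM in LA, a log2 fold change of -0.25 with groups that did not overlap. Its paralogue Hnrnpll had the lowest fold change of the class, -0.27, at 25.1 and 30.9 FPKM in Ctrl and 25.6 and 20.4 FPKM in LA. Hnrnpul2 stood at 34.1 and 32.8 FPKM in Ctrl and 30.2 and 28.1 FPKM in LA, a log2 fold change of -0.19 with groups apart.

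At the low end, Hnrnpd, or AUF1, stood at 21.2 and 20.6 FPKM in Ctrl and 22.7 and 21.8 FPKM in LA, and Hnrnph3 at 23.4 and 26.2 FPKM in Ctrl and 26.3 and 19.7 FPKM in LA. Of the 20 genes 16 were lower in LA replicate 2 than in LA replicate 1, with a median difference of -0.15, but after a correction of each library for length and GC content 11 of 20 were lower, with a median of -0.02. Hnrnpa1l2-ps2, a pseudogene by its symbol, was listed at 0.01 and 0.37 FPKM in Ctrl and 0 and 0.25 FPKM in LA and was not tested. Reads can be split between Hnrnpa1 and such copies, so its values are uncertain to that extent.

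The snRNP proteins went the other way within the LA group. They include the Sm proteins that close a ring around the small nuclear RNAs. Of the 12 genes 10 were higher in LA replicate 2 than in LA replicate 1, with a median difference of 0.17. Of all genes tested 57.9% were lower there, with a median of -0.07. Of all genes with a longest coding transcript under 1500 bases only 26.2% were lower, with a median of 0.23, so short genes shared this direction. The median log2 fold change of the 12 snRNP genes was 0.08, with 8 positive, 4 negative and 0 called. After the length and GC correction described with the LA libraries it was -0.06. Snrpg, an Sm protein, had the widest gap of all members, at 23.5 and 18.0 FPKM in Ctrl and 16.1 and 34.7 FPKM in LA. Snrpd2, another Sm protein, stood at 65.7 and 79.2 FPKM in Ctrl and 79.4 and 122 FPKM in LA, with a log2 fold change of 0.44 (95% interval -0.09 to 0.98, adjusted p = 0.710 from limma), level with that of Celf4 as the highest of the members. LA replicate 1 lay only just above Ctrl replicate 3, and without LA replicate 2 the log2 fold change was 0.14. Snrpd3 stood at 51.0 and 52.4 FPKM in Ctrl and 52.9 and 57.0 FPKM in LA. Snrpn, an imprinted gene of the Prader-Willi region whose product replaces the ring protein of Snrpb in neurons, stood at 93.2 and 78.8 FPKM in Ctrl and 79.6 and 91.4 FPKM in LA. Snrpb itself was 49.0 and 52.3 FPKM in Ctrl and 36.6 and 49.8 FPKM in LA, so Snrpn was the higher in every library.

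Among the other snRNP genes, Snrpa and Snrpc encode proteins of the U1 particle. Snrpa stood at 34.8 and 30.2 FPKM in Ctrl and 32.0 and 39.6 FPKM in LA, and Snrpc at 35.1 and 33.4 FPKM in Ctrl and 29.7 and 30.9 FPKM in LA, with a log2 fold change of -0.17. Snrpa1, of the U2 particle, was the lowest, at 15.6 and 17.02 FPKM in Ctrl and 13.2 and 20.1 FPKM in LA, and did not differ from Snrpf (18.6 and 16.8 FPKM in Ctrl, 19.4 and 18.4 FPKM in LA) beyond the spread. Small genes such as these have processed copies elsewhere in the genome that can take their reads.

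**Figure D3:**
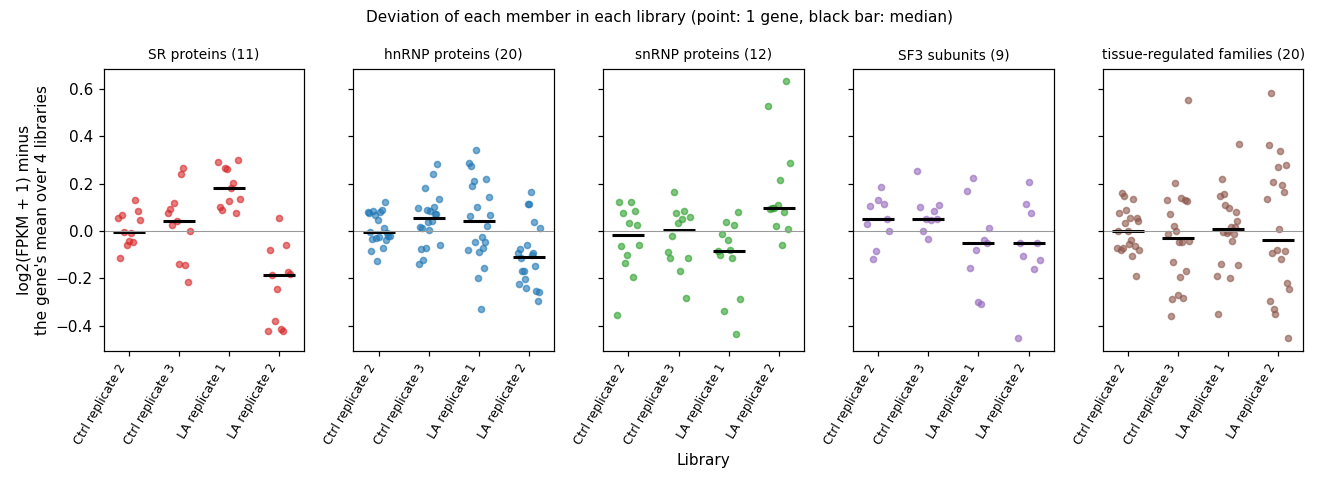
Log2(FPKM + 1) of each tested member minus its mean over the 4 libraries (vertical axis), by library and class. Points are genes and black bars are medians; in LA replicate 1 and LA replicate 2 the median is 0.18 and -0.18 for SR genes and -0.08 and 0.10 for snRNP genes.

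The SF3 subunits recognise the branch site. Their median log2 fold change was -0.11, with 2 of the 9 positive, 7 negative and 0 called, where 52.4% of all genes tested were negative. Sf3b1, the subunit often mutated in blood disorders, had the lowest fold change and the widest spread, at 80.9 and 94.8 FPKM in Ctrl and 89.2 and 57.7 FPKM in LA, a log2 fold change of -0.28 (95% interval -0.81 to 0.25) that was 0.03 without LA replicate 2. Sf3b2 stood at 71.3 and 71.0 FPKM in Ctrl and 59.3 and 63.9 FPKM in LA, with groups apart and a log2 fold change of -0.21. Sf3b4 was 25.9 and 23.4 FPKM in Ctrl and 18.1 and 23.9 FPKM in LA, a log2 fold change of -0.23. Sf3b3 stood at 19.2 and 18.7 FPKM in Ctrl and 17.1 and 15.6 FPKM in LA, a log2 fold change of -0.20. The 2 Ctrl libraries of Sf3a3 were 16.8 FPKM each and the 2 LA libraries 15.6 FPKM each, a log2 fold change of -0.10. Sf3b6, which touches the branch-point adenosine, was 43.0 and 46.7 FPKM in Ctrl and 54.7 and 43.4 FPKM in LA. Sf3a1 was the lowest of the class, at 13.4 and 14.5 FPKM in Ctrl and 13.5 and 12.2 FPKM in LA.

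Over all 72 members the libraries of the LA group differed from each other by more than the group means did. The median size of the log2 difference was 0.28 between the LA libraries, 0.12 between the Ctrl libraries and 0.12 between the group means. These measures are unlike, because a difference of means of 2 libraries varies less than a difference of single libraries. For all genes tested these were 0.25, 0.14 and 0.16. Transcript length moved with the difference between the LA libraries. Genes with a longest coding transcript under 1500 bases had a median difference of 0.23 and genes over 4000 bases of -0.22, and Pearson's r with log2 length was -0.42 (Spearman's rho -0.43) over 12980 genes of the same libraries, which are not independent. Over the 72 members r was -0.17 (Spearman's rho -0.15). The snRNP genes are short, with a median of 1204.5 bases, while the SR genes have a median of 2618 bases and ran from 1162 to 5362 bases. All genes in that range had a median difference of -0.04 between the LA libraries. After each library was corrected for its trend on length and GC content, 10 of 11 SR genes were still lower in LA replicate 2, with a median difference of -0.30, and 9 of 12 snRNP genes higher, with a median of 0.18. The hnRNP genes went from 16 to 11 of 20 lower, and all members from 45 of 72 (62.5%) to 35 of 72 (48.6%), with a corrected median of 0.02. All 3 Ptbp genes were still lower, with a corrected median of -0.22, and 6 of 9 splicing kinases, with a corrected median of -0.36. Over all genes the corrected median was -0.0009, with 50.2% lower.

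**Figure D4:**
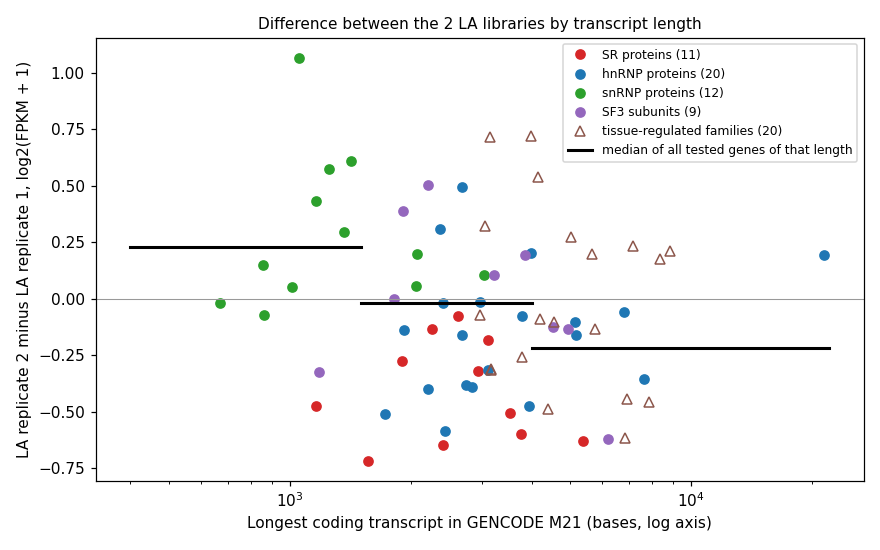
Difference between LA replicate 2 and LA replicate 1 in log2(FPKM + 1) (vertical axis) against the longest coding transcript in bases (log axis). Each symbol is 1 tested member and black lines are medians of all tested genes of a length class; the SR genes lie between -0.72 and -0.08, below 0 throughout.

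Other quantities moved with this difference. Pan-neuronal markers were higher in LA replicate 2 in 8 of 10 genes, with a median difference of 0.32, and astrocyte markers lower in 7 of 8, with a median of -0.28. Of the members best known from neurons, Rbfox1, Rbfox3, Celf4, Elavl3, Elavl4, Nova1 and Nova2 were higher in LA replicate 2, while Celf3, Celf5, Celf6, Elavl2 and Ptbp2 were lower. Erythrocyte markers summed to 3258 FPKM in LA replicate 1 against 1610 to 1863 FPKM in the other libraries. The part of these cell types in the differences was not tested.

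Genes of the spliceosome outside these families were described from a list of 81, of which 78 were tested and 0 were called. Of the 78, 5 had an unadjusted p under 0.05 from limma, 3 higher and 2 lower. This does not exceed the share of all genes tested, 7.8%. Their median log2 fold change was -0.03. Prpf8, the core protein of the U5 particle, was 29.4 and 32.0 FPKM in Ctrl and 23.7 and 20.5 FPKM in LA, a log2 fold change of -0.46 (adjusted p = 0.588 from limma). Tra2a, an SR-like activator of exons, was 31.6 and 32.1 FPKM in Ctrl and 58.1 and 37.0 FPKM in LA, a log2 fold change of 0.53. Snrnp25, of the minor spliceosome, was 10.8 and 13.8 FPKM in Ctrl and 16.6 and 16.8 FPKM in LA. It had a log2 fold change of 0.42 and Zrsr1, a relative of the small U2AF subunit, of -0.36. The third higher gene, Rbm25, named after its values were seen, was 52.2 and 51.1 FPKM in Ctrl and 59.7 and 106 FPKM in LA. Of these 78 genes 53 were lower in LA replicate 2 than in LA replicate 1, with a median of -0.17, which is 67.9% against 57.9% of all genes tested. After the length and GC correction 46 of 78 were lower (59.0%), with a median of -0.06, against 50.2% of all genes.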

How the data were processed

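Hippocampal poly(A) RNA was sequenced from 2 Ctrl and 2 LA libraries. The authors deposited 1 table of FPKM per gene; TopHat2, Cufflinks and the GRCm38 build are listed in the submitters' processing notes, while tool versions, annotation and read totals were not given in the sources used here. FPKM is scaled to each library's total, so a gene taking more of a library lowers the others, and it sums the transcripts of a gene.

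Groups follow the submitters' labels. Log2(FPKM + 1) was fitted with limma 3.58.1 (lmFit, eBayes with trend) in R 4.3.3 on all 13518 genes averaging 1 FPKM or more. P-values were adjusted by Benjamini-Hochberg at 0.05. The fit was also run on data simulated from its own fitted spread. Those data held no length trend, so the run cannot show how the fit behaves under that trend. Alternatives were pseudocounts of 0.1 and 0.5, a minimum of 5 FPKM or none, median-ratio and quantile scaling, a length and GC correction from GENCODE M21, limma without trend or with robust estimation, and each library left out. Named were every Rbfox, Nova, Elavl, Ptbp, Mbnl and Celf gene and, in each other class, the 3 highest, the 3 lowest and the 4 smallest p-values, plus up to 4 genes per pathway list. The members and the lists (spliceosome, splicing kinases and cell type markers) were chosen with earlier results of these data known.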

Additional observations from a re-analysis of the deposited data

How the results depend on the processing

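The count of members past the threshold was 0 in either direction under all 13 alternatives. Over all genes, the count called higher was 2 with a pseudocount of 0.1 and 1 with a pseudocount of 0.5, with quantile normalization, without the limma trend and with robust estimation, and ranged from 0 to 119 with a library left out. The count called lower was 0 with no filter on low values and 39 with robust estimation, and ranged from 2 to 191. Members with an unadjusted p under 0.05 numbered 0 higher with pseudocounts of 0.1 and 0.5, the length and GC correction, no trend and robust estimation, and 3 lower with the length and GC correction (Snrpb, Snrpc and Ptbp1). With a library left out they ranged from 0 to 8 higher and from 0 to 12 lower, the highest counts without LA replicate 1. The median log2 fold change of the members then ranged from -0.076 (without LA replicate 1) to 0.037. With the length and GC correction 4.17% of members had an unadjusted p under 0.05 from limma, against 9.14% of all genes in that fit. The share of all genes under this limit was also highest without LA replicate 1, but it rose less than the share of members. In the main fit the share of members was below that of all genes, and without LA replicate 1 it was above. That fit leaves LA replicate 2 alone in its group. The cause of these shifts was not tested.

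Of 793 log2 fold changes of the 61 named genes tested, 749 kept their sign and 44 did not. Median-ratio scaling gave 0.020 for Hnrnpa1, 0.0225 for Snrpn and 0.028 for Snrpa1. Quantile normalization gave -0.041 for Rbfox3 and Srsf11, -0.021 for Hnrnpa2b1 and 0.0073 for Snrpa1. The length and GC correction gave -0.002 for Hnrnpa2b1, -0.15 for Snrpf and -0.012 for Sf3b6. With a library left out 26 genes crossed 0: Rbfox2 (-0.37 to 0.075), Mbnl2 (-0.17 to 0.031), Ptbp3 (-0.18 to 0.43), Celf3 (-0.097 to 0.35), Rbfox3 (-0.35 to 0.37), Celf5 (-0.41 to 0.073), Nova2 (-0.060 to 0.36), Elavl4 (-0.13 to 0.41), Rbfox1 (-0.22 to 0.11), Srsf2 (-0.23 to 0.041), Srsf11 (-0.084 to 0.12), Srsf5 (-0.49 to 0.23), Srsf12 (-0.21 to 0.11), Srsf9 (-0.11 to 0.36), Srsf4 (-0.12 to 0.15), Srsf10 (-0.53 to 0.0655), Srsf1 (-0.53 to 0.093), Hnrnpa1 (-0.080 to 0.059), Hnrnpa2b1 (-0.19 to 0.32), Hnrnph3 (-0.32 to 0.085), Snrpn (-0.13 to 0.11), Snrpa1 (-0.29 to 0.29), Snrpg (-0.34 to 0.73), Snrpa (-0.016 to 0.28), Sf3b6 (-0.045 to 0.28) and Sf3b1 (-0.59 to 0.027).

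No paired analysis was possible because no label links a Ctrl library to an LA library. With 2 libraries a group, no read totals and no counting error, small changes were not detectable, and a library left alone in its group was assumed to vary like the other group.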

Other observations

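The kinases that phosphorylate SR proteins were described from a list of 9 genes, all tested, with 0 past the threshold, a median log2 fold change of -0.02 and 8 of 9 lower in LA replicate 2 than in LA replicate 1. Clk1, a CDC-like kinase that acts on SR proteins in the nucleus, was 60.6 and 41.0 FPKM in Ctrl and 96.5 and 67.7 FPKM in LA. Both LA libraries lay above both Ctrl libraries, with a log2 fold change of 0.69 (95% interval 0.12 to 1.26, adjusted p = 0.605 from limma). Clk4, its close relative, was 39.8 and 31.6 FPKM in Ctrl and 61.8 and 41.0 FPKM in LA, also without overlap, with a log2 fold change of 0.49 (adjusted p = 0.665 from limma). Srpk2, which phosphorylates SR proteins in the cytoplasm, and Dyrk1a had a log2 fold change of -0.20 each, with both LA libraries below both Ctrl libraries.

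Some members are annotated with transcripts that nonsense-mediated decay removes, a route by which SR proteins and Ptbp1 limit their own level. In GENCODE M21 such a transcript was listed for 9 of 11 SR genes, all 3 Ptbp genes, 10 of 20 hnRNP genes, 3 of 6 Celf genes, 4 of 12 snRNP genes, 1 of 9 SF3 genes and none of the Rbfox, Elavl, Nova and Mbnl genes tested. Over all members this was 30 of 72 (41.7%), against 28.1% of all genes tested that matched the annotation. Members also had more annotated transcripts, a median of 7 against 5. A transcript with a retained intron was listed for 72.2% of members against 58.1% of these genes. The part of the number of transcripts in these shares was not tested. Gene-level FPKM sums the transcripts open to decay with the coding transcripts, so a switch between them was not measured here.

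Microglia markers (8 of 8 tested) summed to 213 and 197 FPKM in Ctrl and 289 and 270 FPKM in LA, astrocyte markers to 720 and 670 FPKM in Ctrl and 812 and 664 FPKM in LA, and ependymal markers to 33.3 and 47.9 FPKM in Ctrl and 50.7 and 62.0 FPKM in LA.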
